A study of Mus musculus with 6 samples.

Results

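The 8 small nucleolar RNAs (snoRNAs) that lie inside Snhg1, a non-coding host gene on mouse chromosome 19, were followed through the small RNA libraries of 6 bone marrow samples. Members were taken as the features that lie within the GENCODE M21 gene Snhg1 on its own strand and that have the start and end of an annotated snoRNA gene. GENCODE annotates 8 snoRNAs there, and all 8 had reads in all 6 libraries. They are 8 of 443 snoRNA features and of 1823 features listed in at least 1 library.

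The study profiled snoRNAs in bone marrow cells without lineage markers (Lin-), a population that holds blood stem and progenitor cells. Of the 6 libraries, 3 came from mice labelled Mat KO (KO below), which concerns the imprinted Dlk1-Gtl2 locus, and 3 from wildtype mice (WT below). All 6 libraries were made from total RNA and cut from a gel at the length of snoRNAs. The labels do not say which part of the locus was deleted, nor the strain and age of the mice. Nothing states that the replicates come from separate animals, so p-values here measure how far the libraries of a group scatter, and that scatter may be technical.

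Most vertebrate snoRNAs are not transcribed from genes of their own. They lie in the introns of a host gene and are released from the intron after splicing. Snhg1 is such a host: its spliced RNA codes for no known protein, and its introns carry snoRNAs of the box C/D type. A box C/D snoRNA holds a box C near its start and a box D near its end, and often inner copies named C' and D'. The bases just before box D or D' pair with a target RNA, most often ribosomal RNA, and direct the 2'-O-methylation of the target base that faces position 5 before the box. Some box C/D snoRNAs are needed for cutting the ribosomal RNA precursor instead: Snord22, also named U22, is known from frog oocytes for its part in making 18S ribosomal RNA.

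The sequences of the 8 members are shown in the order of the host introns, because the boxes and the lengths differ among them. Capitals mark each TGATGA, a common form of box C, and the last CTGA, the usual form of box D.
Gm25855: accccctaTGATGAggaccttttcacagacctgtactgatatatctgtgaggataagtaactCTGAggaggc
Gm25894: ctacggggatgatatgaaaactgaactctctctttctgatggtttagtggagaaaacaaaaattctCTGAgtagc
Gm24452: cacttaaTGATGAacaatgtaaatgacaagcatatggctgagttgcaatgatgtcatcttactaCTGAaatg
Gm24453: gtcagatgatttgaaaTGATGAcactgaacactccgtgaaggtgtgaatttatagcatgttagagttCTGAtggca
Gm22744: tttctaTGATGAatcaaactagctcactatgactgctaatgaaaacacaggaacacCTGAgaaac
Gm22680: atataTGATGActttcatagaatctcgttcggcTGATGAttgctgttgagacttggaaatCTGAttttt
Gm23246: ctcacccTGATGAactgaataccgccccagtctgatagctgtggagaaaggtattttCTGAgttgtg
Snord22: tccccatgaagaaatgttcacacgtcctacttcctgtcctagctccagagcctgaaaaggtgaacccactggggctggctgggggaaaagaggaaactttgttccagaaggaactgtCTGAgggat

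These are GENCODE M21 transcripts on GRCm38, read 5′ to 3′ on the plus strand, and all 8 members had one. Their places are chr19:8723993-8724064 for Gm25855, chr19:8724251-8724325 for Gm25894, chr19:8724531-8724602 for Gm24452 and chr19:8724868-8724943 for Gm24453. Gm22744 lies at chr19:8725092-8725156, Gm22680 at chr19:8725341-8725409, Gm23246 at chr19:8725594-8725660 and Snord22 at chr19:8725866-8725991. RefSeq has the same ends for every member except Gm24452. It gives a gene symbol of its own to Snord22 alone, so no role is assigned here to the 7 members with Gm names.

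All 8 members had a CTGA that started in their last 15 bases, with 4 to 6 bases after it. The same was true of 236 of the 443 listed snoRNA features (53.3%) and of 486 of the 1507 snoRNAs in the annotation (32.2%). TGATGA, searched like CTGA on the RNA's own strand only, occurred in 6 of 8 members, and in 188 of 443 listed features (42.4%) and 393 of 1507 annotated ones (26.1%). Gm22680 held TGATGA at 2 places, the second of which overlaps an inner CTGA. Gm25894 and Snord22 held none, which says only that these letters are not in their sequence. Snord22 also stood apart in length, at 126 nt, while the other 7 ranged between 65 nt for Gm22744 and 76 nt for Gm24453.

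Complementarity to ribosomal RNA was searched against an annotated copy related to 18S, Rn18s-rs5 on chromosome 17, which is 1849 nt long. The sequence is that of the GENCODE gene CT010467.1 (chr17:39846353-39848201), annotated on the minus strand and read here on the plus strand. RefSeq places Rn18s-rs5 at 39846354 to 39848202, and base numbers below count from the GENCODE start. A run of at least 11 paired bases, without G-U pairs or gaps, was found in 3 of 8 members, against 55 of 443 listed snoRNA features (12.4%). In Gm25855 and Gm24452 the run ended 1 base before an inner CTGA, the place where a guide sequence lies in this class. Such a run ending no more than 2 bases before a CTGA occurred in 32 of 443 listed features (7.22%). The paired stretches are shown because a guide of this class acts through the bases that pair. Capitals mark the run in the snoRNA and, in the ribosomal RNA copy, the base opposite position 5 before the CTGA.
Gm25855, run in capitals: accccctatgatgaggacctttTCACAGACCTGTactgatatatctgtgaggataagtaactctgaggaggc
Rn18s-rs5 stretch facing Gm25855: acaGgtctgtga
Gm24452, run in capitals: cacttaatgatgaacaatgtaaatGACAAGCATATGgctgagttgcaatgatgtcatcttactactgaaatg
Rn18s-rs5 stretch facing Gm24452: catAtgcttgtc

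Gm25855 paired through its bases 23 to 34 with bases 1494 to 1505 of the copy, which placed base 1497 opposite position 5 before the CTGA. Gm24452 paired through its bases 25 to 36 with bases 24 to 35, which placed base 27 there. Both runs were 12 bases long. The run of Gm22744 covered 11 bases, 37 to 47, and had no CTGA just after it. These are matches of letters, and methylation was not measured in these libraries.

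The members sat 1 to an intron. The host gene spans chr19:8723475-8726443 on the plus strand, and its spliced transcript with the most exons has 10 exons and 9 introns, of which introns 1 to 8 each held 1 snoRNA and the last held none. The exons of that transcript add up to 605 nt of the 2969 nt of the gene. GENCODE lists 18 transcripts of Snhg1, 14 of them with a retained intron, and each member falls inside an exon of 1 to 7 of these.

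Distance to the next exon varied little. It was 65 nt for Gm22744, 69 nt for Gm24452, 70 nt for Gm24453, 75 nt for both Gm22680 and Snord22, 76 nt for Gm25855, 77 nt for Gm25894 and 121 nt for Gm23246. Host introns ranged between 175 nt and 634 nt, and the distance from the previous exon ranged between 39 nt for Snord22 and 486 nt for Gm25855. The members thus differed far more in how far they lie from the exon before them than in how far they lie from the exon after them. Of the 7 members no longer than 100 nt, 6 ended 60 to 80 nt before the next exon, with a median of 75 nt. Among snoRNAs of that length in Gas5, the other well known non-coding host, 7 of 10 features (70.0%) did so. These 10 include a snoRNA feature named Mir5117 and 2 nested features named Snord80, which lie outside that window; counted once, Snord80 leaves 7 of 9. Among all 180 intron-hosted snoRNA features of that length outside Snhg1, Gas5 included, 45 did so, and their median distance was 281.5 nt. The listed features and the annotation alone give these distances, with no measured value.

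**Figure D1:**
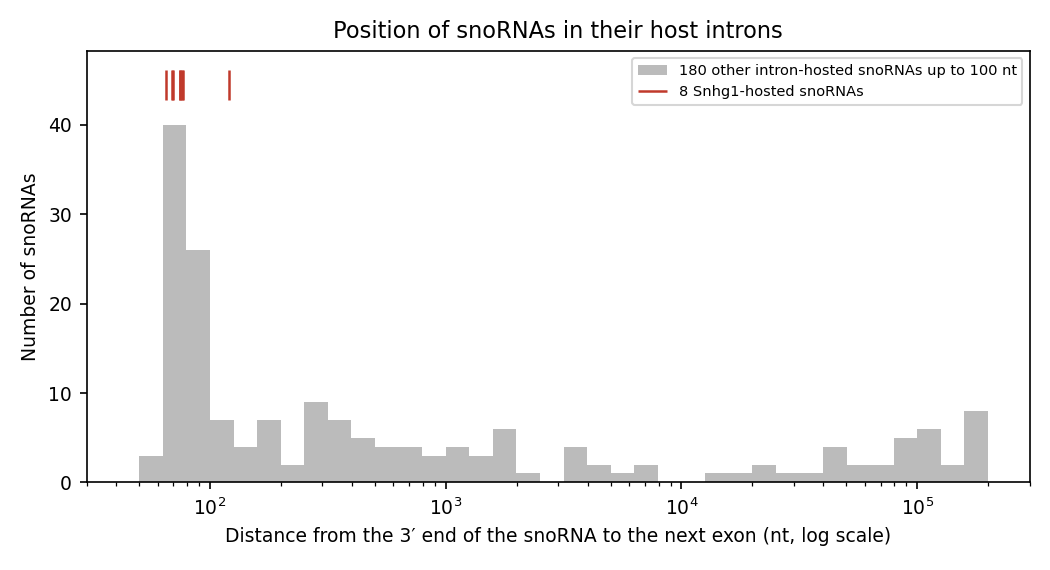
Number of snoRNA features (vertical axis) by the distance between their end and the next exon in nt (horizontal axis, log scale); grey bars are 180 intron-hosted snoRNAs of up to 100 nt outside Snhg1, and red ticks are the 8 Snhg1 members, which lie between 65 nt and 121 nt. The grey bars have a peak near the red ticks and a long tail to the right.

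Levels are given in CPM, the count scaled to the total count of the library. The mean over all 6 libraries placed Gm25894 at rank 18, Gm23246 at rank 19 and Gm24452 at rank 20 among 443 snoRNA features. Gm22680 had rank 27, Gm22744 rank 53, Gm24453 rank 77 and Gm25855 rank 81, while Snord22 had rank 150. Each library holds more of some snoRNA lengths than of others, so ranks were also taken within a length class. Against snoRNA features of 110 to 140 nt, whose median was 2.69 CPM, Snord22 had rank 18 of 108. Against those of 60 to 80 nt, whose median was 669 CPM, Gm25894 had rank 12 of 97 and Gm25855 rank 57.

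Per 100 nt of length, the order of the levels was Gm23246, Gm25894, Gm24452, Gm22680, Gm22744, Gm24453, Gm25855 and Snord22. Gm23246 had 19562 ± 1203 CPM per 100 nt and Gm25894 had 18768 ± 1090 (SD, n = 6 libraries). Gm24452 had 16891 ± 3008 and Gm22680 had 9651 ± 853 CPM per 100 nt (SD, n = 6). These 4 form an upper group. Gm22744 had 1646 ± 421, Gm24453 had 625 ± 134 and Gm25855 had 565 ± 66.1 CPM per 100 nt (SD, n = 6). Snord22 lay far below all others, at 15.03 ± 4.91 CPM per 100 nt (SD, n = 6).

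Neighbours in that order were compared within libraries by an exact two-sided sign-flip test over 6 libraries, which cannot go below p = 0.03125. The order itself came from the means of these same 6 libraries. The pairs and the direction of each step were thus set by the data tested. The p-values describe how steady a step was over the libraries and are no independent support for the order. Gm23246 was 1.04-fold higher than Gm25894, in 5 of 6 libraries (exact p = 0.25, adjusted over the 7 neighbour pairs 0.281). Gm25894 was 1.12-fold higher than Gm24452, in 5 of 6 (exact p = 0.0938, adjusted 0.131), and Gm24453 was 1.09-fold higher than Gm25855, in 5 of 6 (exact p = 0.281, adjusted 0.281). The neighbours of these 3 pairs did not differ beyond their spread. The other 4 steps were seen in 6 of 6 libraries, each with the smallest exact p, 0.03125, and an adjusted p of 0.0547, which is above 0.05. They were 1.73-fold between Gm24452 and Gm22680, 6.002-fold between Gm22680 and Gm22744, 2.62-fold between Gm22744 and Gm24453 and 39.3-fold between Gm25855 and Snord22.

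SnoRNAs of this host gene spanned a 1302-fold range per 100 nt, and a 34.6-fold range among the 7 of up to 76 nt. The 10 snoRNA features within Gas5 spanned 582-fold per 100 nt. Level did not follow the place in the host: introns 2, 3 and 7 held the highest 3, and introns 1 and 8 held the lowest 2. The 3 most abundant members made up 81.6% to 84.1% of all Snhg1 snoRNA reads in KO libraries and 79.1% to 82.6% in WT libraries.

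**Figure D2:**
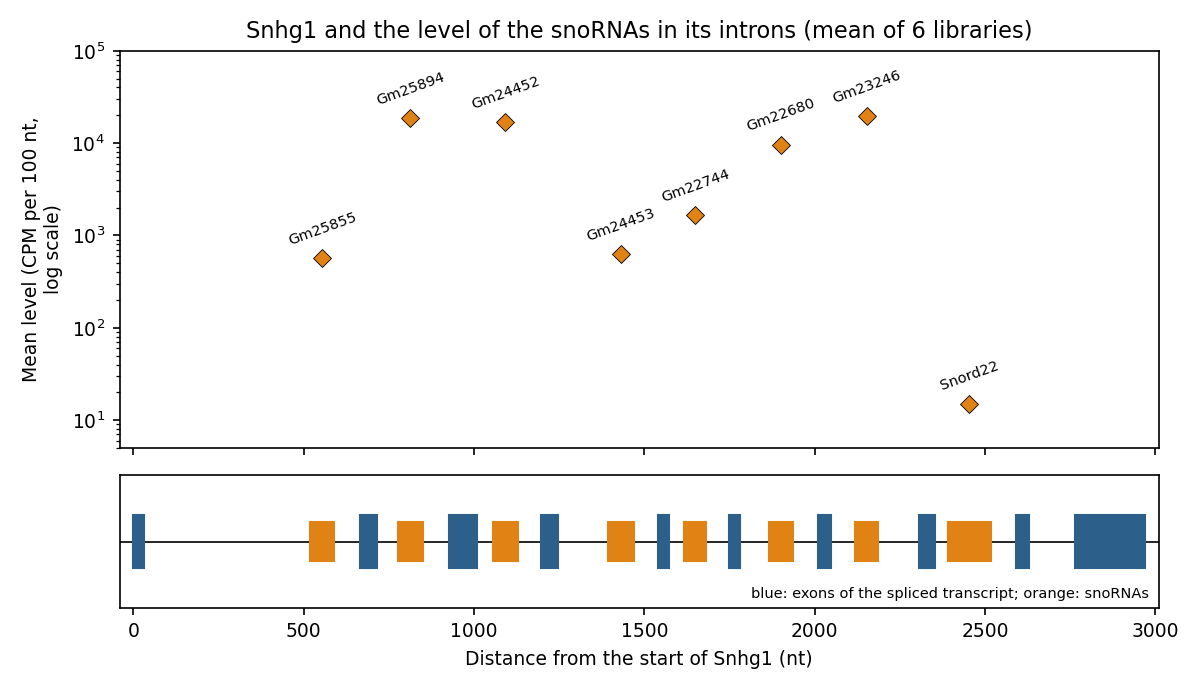
Upper panel: mean level of each member over 6 libraries in CPM per 100 nt (vertical axis, log scale; diamonds) at its place in Snhg1 (horizontal axis, nt from the start of the gene); lower panel: exons of the spliced transcript in blue and snoRNAs in orange. Gm25894, Gm24452 and Gm23246 stand highest, at 16891 to 19562 CPM per 100 nt, and Snord22 lowest, at 15.03.

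No member passed the test for a difference between KO and WT libraries. In edgeR's quasi-likelihood test across 624 features, with Benjamini-Hochberg adjustment over all of them, 0 of 8 members had an adjusted p under 0.05, against a background of 1 called feature (0.16%), and DESeq2 called no member either. At an unadjusted p under 0.05 there was 1 member, Gm24452, against 40 features (6.41%). The KO and WT values in CPM overlapped for all 8 members, so 0 of 8 were separate, against 95 of the 624 features (15.2%). On the effective library sizes of the edgeR fit (TMM scaling) 1 of 8 was separate, Gm24452, against 97 of 624 features (15.5%). The estimate was above 0 for 5 of 8 members, against 255 of 624 features (40.9%) and 52 of the other 90 tested snoRNAs of 60 to 80 nt. The median log2 fold change, KO over WT, was 0.14 over the members, -0.08 over all tested features and 0.02 over the other 90 tested snoRNAs of 60 to 80 nt. All 8 members had passed the filter on low counts.

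Among the 2 members with a run next to a CTGA, Gm24452 had 11440.0, 14505 and 14674 CPM in KO libraries, against 10995, 9041 and 12315 CPM in WT libraries. KO replicates 2 and 3 were the highest and WT replicate 2 was the lowest, while KO replicate 1 lay among the WT values. On TMM effective library sizes its lowest KO value was 12109 and its highest WT value 12106 CPM. The means were 13540 ± 1820 CPM in KO and 10784 ± 1648 CPM in WT (SD, n = 3 each), and the log2 fold change of 0.39 (SE 0.14, approximate 95% interval 0.05 to 0.73) had an adjusted p of 0.710 in edgeR's quasi-likelihood test. Its unadjusted p in the same edgeR test was 0.0293.

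Gm25855, the member of the first intron, had 334, 384 and 425 CPM in KO libraries, against 478, 404 and 417 CPM in WT libraries. KO replicate 1 was the lowest and WT replicate 1 the highest, and KO replicate 3 lay above 2 of the WT libraries. It averaged 381 ± 45.4 CPM in KO and 433 ± 39.8 CPM in WT (SD, n = 3 each). The log2 fold change was -0.12 (SE 0.14, interval -0.45 to 0.20, edgeR adjusted p = 0.793).

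Of the abundant members without such a run, Gm25894 had 13965, 15307 and 14507 CPM in KO libraries, against 13148, 13228 and 14300.0 CPM in WT libraries. KO replicate 1 lay below WT replicate 3, and the other KO values lay above every WT value. Its means were 14593 ± 675 CPM in KO and 13559 ± 643 CPM in WT (SD, n = 3 each), with a log2 fold change of 0.17 (SE 0.09, interval -0.03 to 0.38, edgeR adjusted p = 0.722).

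Gm23246, the member with the longest distance to the next exon, had 13165, 12444 and 14215 CPM in KO libraries, against 12123, 12848 and 13845 CPM in WT libraries. The 2 groups were interleaved. With means of 13275 ± 891 CPM in KO and 12939 ± 864 CPM in WT (SD, n = 3 each), its log2 fold change was 0.10 (SE 0.09, interval -0.10 to 0.30, edgeR adjusted p = 0.759). Gm25894 and Gm23246 varied least among the members: their highest library was 1.16-fold and 1.17-fold above their lowest.

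Gm22680 had 5721, 7069.8 and 6557 CPM in KO libraries, against 7450.4, 6448 and 6711 CPM in WT libraries. KO replicate 1 was the lowest and WT replicate 1 the highest. The means were 6449 ± 681 CPM in KO and 6870 ± 520 CPM in WT (SD, n = 3 each), and the log2 fold change was -0.03 (SE 0.11, interval -0.28 to 0.23, edgeR adjusted p = 0.955). With relative log expression (RLE) scaling the estimate was 0.083, so no direction is given. A near copy on chromosome 1, Gm23389, matched 56 nt of Gm22680 at 92.9% identity and had 442 reads in all 6 libraries together, against at least 277334 in any library for Gm22680.

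Of the members up to 76 nt, the 2 of introns 4 and 5 had the widest range over libraries, 1.88-fold for Gm22744 and 1.69-fold for Gm24453. Gm22744 had 833, 1464 and 1325 CPM in KO libraries, against 1063, 777 and 957 CPM in WT libraries. KO replicates 2 and 3 were the highest, and KO replicate 1 was lower than 2 of the WT libraries. It averaged 1207 ± 332 CPM in KO and 932 ± 144 CPM in WT (SD, n = 3 each), with a log2 fold change of 0.43 (SE 0.22, interval -0.10 to 0.97, edgeR adjusted p = 0.730). Gm24453 had 357, 602 and 527 CPM in KO libraries, against 553, 364 and 445 CPM in WT libraries. Here the lowest and the highest library were both KO. Its means were 495 ± 125 CPM in KO and 454 ± 94.7 CPM in WT (SD, n = 3 each), and its log2 fold change was 0.19 (SE 0.24, interval -0.37 to 0.75, edgeR adjusted p = 0.805).

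Snord22, the U22 RNA, had 23.0, 10.3 and 14.9 CPM in KO libraries, against 26.4, 15.8 and 23.2 CPM in WT libraries. These values rest on 535 to 1409 reads, and their range of 2.56-fold was the widest among the 8 members. KO replicate 2 was the lowest and WT replicate 1 the highest, with KO replicate 1 above WT replicate 2. The means were 16.1 ± 6.43 CPM in KO and 21.8 ± 5.47 CPM in WT (SD, n = 3 each), and the log2 fold change was -0.37 (SE 0.37, interval -1.24 to 0.51, edgeR adjusted p = 0.779). Without KO replicate 2 the estimate was -0.07.

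**Figure D3:**
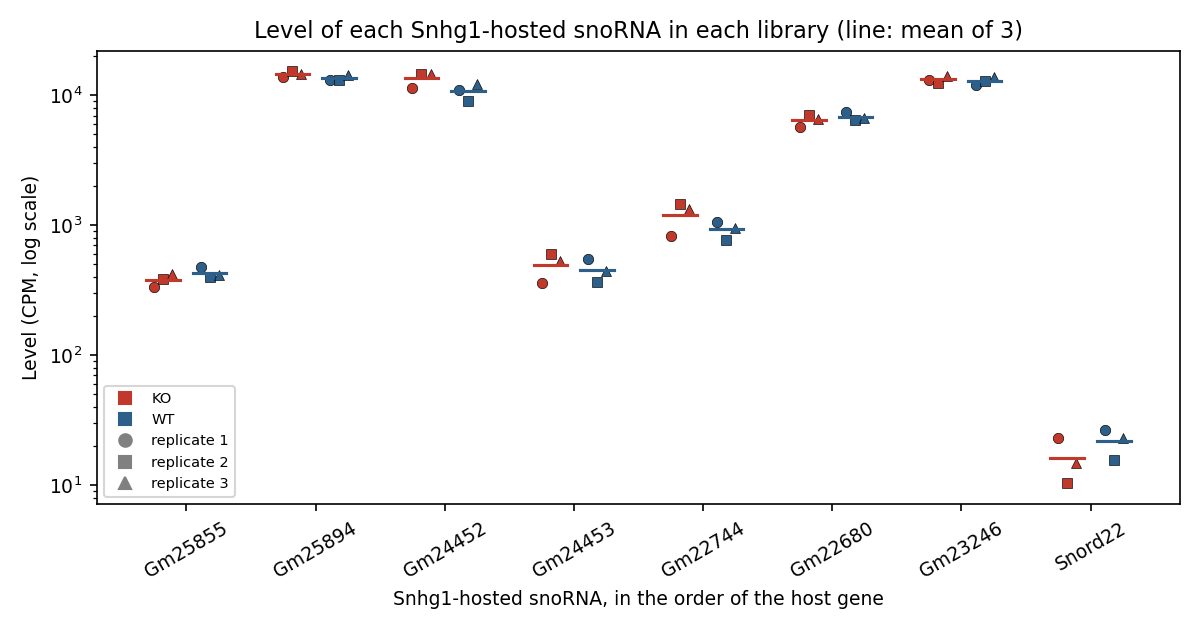
Level of each member in CPM (vertical axis, log scale) in the 3 KO libraries (red) and the 3 WT libraries (blue), with members in the order of the host introns; each marker is 1 library, its shape gives the replicate, and lines are means of 3. KO and WT values overlap for all 8 members, and Snord22 lies below all others, at 10.3 to 26.4 CPM.

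**Figure D4:**
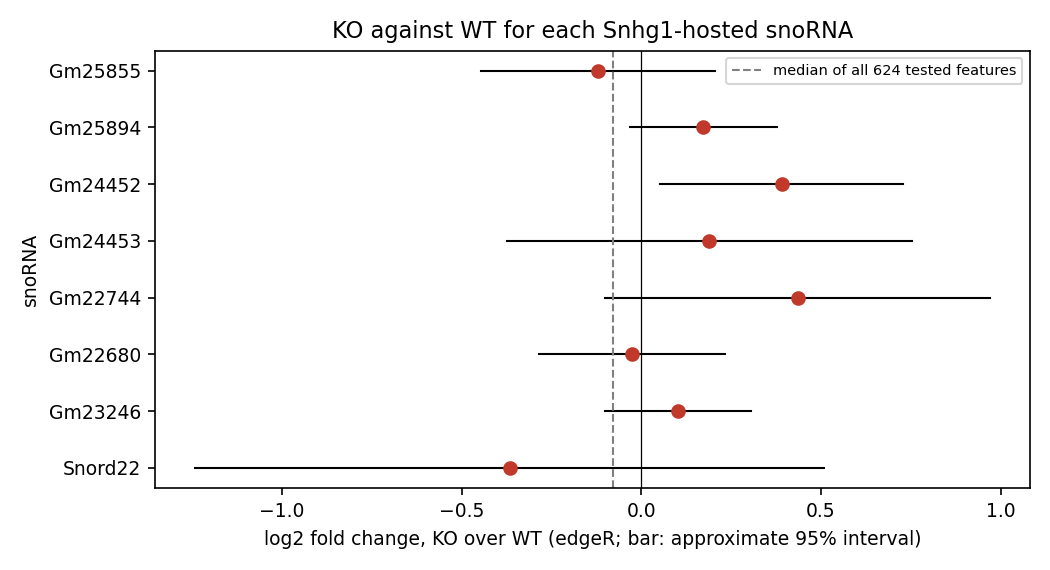
Log2 fold change of each member, KO over WT (horizontal axis; dots), with its approximate 95% interval from edgeR (bars), and the median of all 624 tested features as a dashed line at -0.08. The interval of Gm24452 (0.05 to 0.73) lies above 0, and the other 7 include 0.

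Some members were high or low together in some libraries and not in others. Deviations were taken as log2 CPM minus the mean over the 6 libraries. Gm22744, Gm24453 and Gm24452 were below their means in KO replicate 1 (-0.32, -0.38 and -0.07) and in WT replicate 2 (-0.42, -0.35 and -0.41). The same 3 were above their means in KO replicate 2 (0.49, 0.37 and 0.27) and KO replicate 3 (0.35, 0.18 and 0.29). The other 90 tested snoRNAs of 60 to 80 nt had median deviations of -0.12 in KO replicate 1, -0.06 in WT replicate 2, -0.02 in KO replicate 2 and 0.04 in KO replicate 3. A median over 90 features can hide single features that deviate as much.

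Snord22 had its lowest deviation, -0.80, in KO replicate 2 and its highest, 0.55, in WT replicate 1. The other 107 snoRNAs of its length class had their lowest median, -0.52, and their highest, 0.34, in the same 2 libraries. Over KO replicates 1 to 3 their medians were -0.07, -0.52 and -0.11, and over WT replicates 1 to 3 they were 0.34, 0.05 and 0.24. The part of RNA length or of the size cut in the values of Snord22 was not tested.

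**Figure D5:**
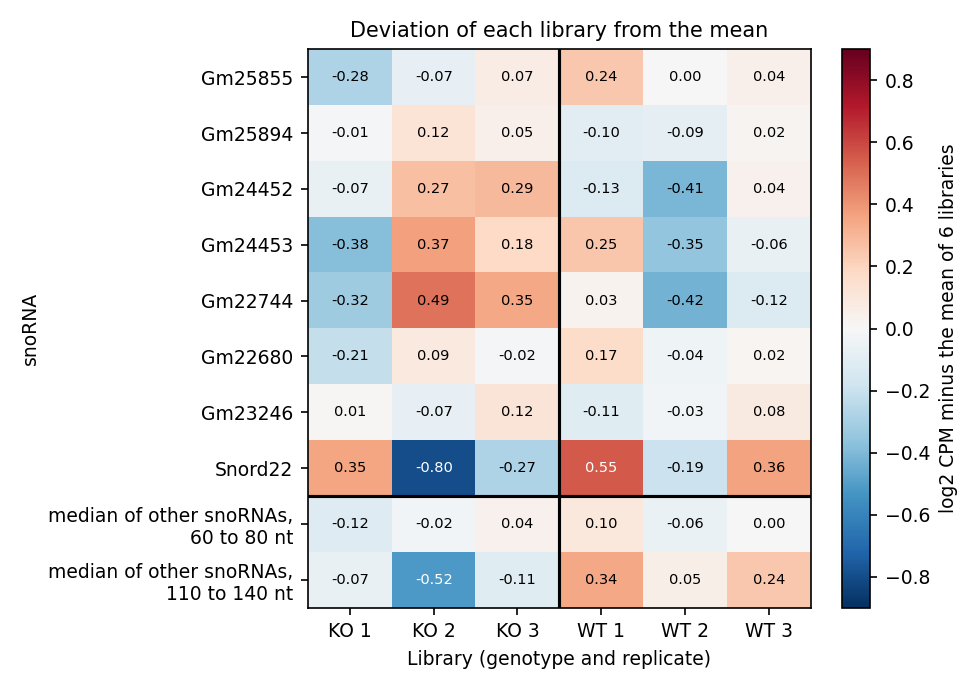
Deviation of each library (columns, KO left of WT) from the mean of 6 libraries in log2 CPM (colour and printed value) for each member, and, below the line, the median of the other snoRNAs of 60 to 80 nt and of 110 to 140 nt. Gm24453 and Gm22744 are low in KO 1 and WT 2, while Gm24452 is low in WT 2, at -0.41, and near its mean in KO 1, at -0.07. Snord22 is lowest in KO 2, at -0.80, where snoRNAs of its length have a median of -0.52.

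All members together made up 45839, 51786 and 52245 CPM in KO libraries, against 45838, 43125 and 49013 CPM in WT libraries. KO replicate 1 lay at the level of WT replicate 1, and the other KO values lay above all WT values. The sums averaged 49957 ± 3573 CPM in KO and 45992 ± 2947 CPM in WT (SD, n = 3 each), a log2 ratio of 0.12 (exact two-sided permutation test, p = 0.2). On TMM effective library sizes the sums were 48519, 54111 and 50586 CPM in KO libraries, against 44500.3, 42211 and 48179 CPM in WT libraries. On that scale the groups did not overlap, and the log2 ratio was 0.18 (exact two-sided permutation p = 0.1). Of single features, 97 of 624 (15.5%) were separate on that scale. As a share of all snoRNA reads, the log2 ratio of the sum was 0.10 (exact two-sided permutation p = 0.3). With 3 libraries against 3 the exact permutation test cannot go below p = 0.1. In bulk samples, fewer cells that make an RNA and less of it per cell cannot be told apart.

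As a share of all Snhg1 snoRNA reads, which does not depend on how libraries are scaled, 2 of 8 members did not overlap between the groups (in CPM, the background of separate features was 15.2%). Gm22680 took 12.9% ± 0.66 in KO and 14.97% ± 1.28 in WT, and Gm25855 took 0.761% ± 0.045 in KO and 0.943% ± 0.096 in WT (SD, n = 3 each). Both had the smallest exact permutation p, 0.1, and 0.4 after adjustment over the 8 members. For Gm22680 the gap was narrow: its highest KO share was 13.65% and its lowest WT share 13.69%. Shares of 1 total depend on each other, and Gm24452 took the largest difference upward, with 27.0% ± 1.79 in KO and 23.4% ± 2.15 in WT (SD, n = 3 each, exact permutation p = 0.2, adjusted 0.48). The remaining 5 members had exact permutation p-values between 0.3 and 1.

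Gas5 carried more snoRNA reads than Snhg1 in every library. Its 10 snoRNA features summed to 319393 ± 17650 CPM in KO and 297443 ± 6580 CPM in WT (SD, n = 3 each). The nested Snord80 features may share reads: with the longer alone, the means were 315356 CPM in KO and 293232 CPM in WT. The full Gas5 sum was 6.44-fold above the Snhg1 sum within libraries, between 5.94-fold and 6.89-fold in 6 of 6 (exact sign-flip p = 0.03125, the smallest possible). A single Gas5 member, Gm26224, had 196097 CPM in KO and 174030.2 CPM in WT on average. The log2 ratio of Snhg1 to Gas5 was -2.68 ± 0.04 in KO and -2.69 ± 0.11 in WT (SD, n = 3 each, exact permutation p = 0.8), a difference of 0.017. Without the most abundant member of each host, the difference was 0.13 (exact permutation p = 0.2). In edgeR's quasi-likelihood test 0 of 10 Gas5 features had an adjusted p under 0.05 and 1 an unadjusted p under 0.05, DESeq2 called none, 8 of 10 estimates were above 0, and their median log2 fold change was 0.07.

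The other Snhg genes carried fewer snoRNA reads. Their 60 listed snoRNAs, 16 of which passed the filter, summed to 8519 ± 1237 CPM in KO and 8190.2 ± 504 CPM in WT (SD, n = 3 each). The Snhg1 sum was 5.75-fold above theirs, between 5.32-fold and 6.34-fold in 6 of 6 libraries (exact sign-flip p = 0.03125). The log2 ratio was 2.56 ± 0.13 in KO and 2.49 ± 0.07 in WT (SD, n = 3 each, exact permutation p = 0.4). None of the 16 passed edgeR's quasi-likelihood test after adjustment, 0 had an unadjusted p under 0.05 and DESeq2 called none. Of the estimates 6 were above 0, and their median was -0.20.

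Snord22 belongs with the few snoRNAs known for work on the ribosomal RNA precursor, so some others were listed too: copies of U3, U8 (Snord118), U13 (Snord13) and U14. The list was made by these names and is not complete. Of these 16 features, 0 had an adjusted p under 0.05 in edgeR's quasi-likelihood test and 0 an unadjusted p under 0.05, while DESeq2 called none. The median log2 fold change was -0.07, with 5 estimates above 0 and 11 below. Snord118 averaged 43.2 CPM in KO and 49.7 CPM in WT, and Snord13 averaged 12.1 CPM in KO and 14.8 CPM in WT, levels of the same order as those of Snord22. Snord14d, at 702 CPM in KO and 607 CPM in WT, and Snord14c, at 481 and 402 CPM, lay far above Snord22. Their log2 fold changes were 0.27 and 0.32. The U3 copies are nearly identical, so reads could be split between them. Each U3 name is also listed more than once, so the median and the counts of estimates include nearly the same RNA many times. Every Rnu3b feature had an estimate below 0, and the Rnu3a features had estimates above 0.

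Over the 6 libraries, the tested features whose log2 CPM was most like that of the summed members were Gm24916 (Pearson r = 0.96), Snord14c (0.95), Snord14d (0.93), the mitochondrial tRNA mt-Tq (0.93) and Snord98 (0.92). These were the highest of 616 features compared, over 6 points that share library, depth and scaling, and they are a description only.

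Libraries held 45398303 to 53299322 counts in all, so counting error, which takes no account of copies made in PCR, was small beside the spread between libraries for every member. Reads of snoRNAs in the Dlk1-Gtl2 locus numbered 3, 2 and 2 in KO libraries and 87, 106 and 94 in WT libraries. The only feature called by edgeR's quasi-likelihood test, DQ267100, is a snoRNA of that locus with a log2 fold change of -5.50 (adjusted p = 0.0242). The 45S ribosomal RNA precursor took 3.26% to 3.88% of counts in KO and 4.59% to 5.10% in WT, without overlap. Cell types were looked at through miRNA features. These are counts for whole miRNA genes in libraries cut at the length of snoRNAs, so they may not follow the mature miRNAs. Of 7 miRNAs that mark primitive blood cells, all 7 were listed, with sums of 61.1 to 80.9 CPM in KO and 40.5 to 93.5 CPM in WT. The 2 miRNAs taken as B lymphoid, a label not tested here, summed to 4.44 to 6.28 CPM in KO and 0.844 to 3.68 CPM in WT, without overlap. Of all 624 tested features, 15.2% did not overlap in CPM. Myeloid (2 of 2 listed), T lymphoid (2 of 2), erythroid (2 of 3, Mir451a at 0), epithelial (5 of 5) and muscle (3 of 3) sums overlapped between the groups, as did liver (1 of 1) and brain (1 of 2, Mir124a-1 at 0). Myeloid sums were 15.5 to 23.2 CPM in KO and 9.68 to 21.1 CPM in WT, T lymphoid sums 9.28 to 24.3 CPM in KO and 8.59 to 16.1 CPM in WT, and erythroid sums 0.846 to 1.68 CPM in KO and 0.657 to 1.18 CPM in WT. Epithelial sums were 1.42 to 2.20 CPM in KO and 0.769 to 1.76 CPM in WT, muscle sums 0.062 to 7.62 CPM in KO and 0.056 to 0.217 CPM in WT, and liver and brain sums stayed under 0.6 CPM in every library. The part of cell makeup or of the 45S share in the values of the members was not tested.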

How the data were processed

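The deposited files hold raw read counts per feature and library, 1 column each. Per the submitters' processing notes, reads were trimmed with Trimmomatic 0.38 and aligned with Bowtie2 2.3.4.1 to GRCm38. The counting tool, its strand setting and its treatment of reads with several matches are not stated in the labels. Features were matched to GENCODE M21 genes by chromosome, start and end. Their names carry no strand, so the strand used is that of the matched gene. Counts were scaled by library total (CPM) for levels. They were tested with edgeR 4.0.16 (TMM scaling, filterByExpr with a minimum count of 10 and total of 15, quasi-likelihood test, Benjamini-Hochberg over 624 features). Intervals are log2 fold change ± the t quantile times SE. DESeq2 1.42.0 was an alternative. Sums, ratios and shares were compared by exact permutation tests. Near copies were sought with blastn 2.17.0. Scripts were tested on simulated data. Every member is named; other features are named if called, among the 5 most like the summed members, or in a comparison list. Members, lists and tests were chosen with earlier results of these data known. Replicate numbers were not used to pair libraries.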

Additional observations from a re-analysis of the deposited data

How the results depend on the processing

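Over 12 alternatives the number of Snhg1-hosted snoRNAs with an adjusted p under 0.05 was 0 each time. Over all features it was 1 in edgeR's quasi-likelihood test, 13 without the filter on low counts, and between 0 and 1 when libraries were left out in turn (0 without KO replicate 3 or WT replicate 1, 2 or 3). With the replicate block it was 0. Deviations of same-numbered libraries correlated at -0.13, 0.40 and -0.36, and those of differently numbered ones between -0.46 and 0.59. These few values cannot decide whether the numbers pair libraries. The summed level gave log2 ratios of 0.08 to 0.18, the highest on TMM effective library sizes (exact permutation p = 0.1). Its replicate block value was 0.12 (exact sign-flip p = 0.25, the smallest for 3 pairs). Gm22680 turned to a log2 fold change of 0.083 with RLE scaling, 0.033 without the filter, 0.050 with at least 50 counts in 3 libraries and 0.083 in DESeq2. Leaving out a library gave -0.037 to 0.13 for Gm22680 and -0.12 to 0.044 for Gm25855. It gave -0.028 to 0.080 for the Snhg1 to Gas5 difference (0.13 without the most abundant member of each host, 0.015 without the shorter Snord80), and differences in share of -0.85 to 0.50 percentage points for Gm25894 and -0.092 to 0.11 for Gm24453. The other members kept their direction: Gm24452 had 0.33 to 0.59 (adjusted p 0.177 to 0.969), Gm22744 0.33 to 0.72 and Snord22 -0.67 to -0.07. The ratio to other Snhg genes was 0.02 to 0.14 higher in KO, and 0.07 without the snoRNAs of Snhg14; this alternative and the Snord80 one were chosen after seeing the data. The order kept 6 or 7 of 7 neighbour pairs in CPM, in KO alone and in WT alone. Scaling moved the median log2 fold change of all features between -0.16 (library size alone) and 0.02 (RLE). Where a value changed, the cause was not tested. With 3 libraries a group, the interval printed for each member limits what could be detected.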
